A study of Mus musculus with 6 samples.

Results

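The 7 genes described here encode the chains of the IL-4 and IL-13 receptors (Il4ra, Il2rg and Il13ra1) and the 4 Janus kinases (Jak1, Jak2, Jak3 and Tyk2). They were taken by symbol from the 41549 genes of an mRNA table of bone marrow-derived macrophages (Mφs), and all 7 passed the filter on low counts, as did 11933 genes in all. The cells were grown from the bone marrow of adult wild-type C57Bl/6N mice of both sexes with M-CSF, the growth factor that turns marrow precursors into Mφs. Naive cells were transfected with a control antisense oligonucleotide (Ctr, 3 libraries) or with an antisense against 5′tRF-Glu(CTC), which is cut from the 5′ side of a transfer RNA for glutamate (αGlu, 3 libraries). IL-4 and IL-13 were then given to both groups to polarize them to M2 Mφs, so every library comes from cells that had been given the ligands of these receptors. The question that the comparison addresses here is whether blocking the fragment went along with other mRNA levels of the receptors and kinases that read these ligands.

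IL-4 binds Il4ra, and the pair then takes up a partner chain. With Il2rg, the common gamma chain also used by other interleukin receptors, it makes the type I receptor, which answers to IL-4 alone. With Il13ra1 it makes the type II receptor, which answers to IL-4 and to IL-13. The chains have no enzyme activity of their own and carry Janus kinases on their inner side: Jak1 sits on Il4ra, Jak3 on Il2rg, and Tyk2 on Il13ra1, with which Jak2 has also been linked. The kinases phosphorylate Il4ra and with it the transcription factor Stat6, which turns on the genes of the M2 state in Mφs.

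The antisense and the stretch of the tRNA fragment listed as its target are shown first, since the antisense is what sets the groups apart. This stretch is shorter than the fragments that the study reports. Capitals in the target mark the bases that pair with the antisense, and both are written 5′ to 3′ in the letters of DNA.
antisense: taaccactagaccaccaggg
target: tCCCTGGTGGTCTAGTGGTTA
The antisense has 20 bases and pairs with bases 2 to 21 of the target sequence. No annotated transcript of the 7 genes held the full site. The longest run of it found in any of their transcripts was 9 bases, in Jak1 and in Jak3, and 7 or 8 bases in the other 5 genes.

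The stretches upstream of the 4 genes with the larger differences described below are shown because these genes moved together across the libraries, and because they differ in base composition. They are RefSeq sequences of build GRCm38.p6, cut so that they hold no annotated exon, 5′ to 3′ on the strand of the gene, with each CpG dinucleotide in capitals. The Il4ra stretch is chr7:125552021-125552119 on the plus strand. That of Il2rg is chrX:101268256-101268505 on the minus strand. That of Jak3 is chr8:71676133-71676295 and that of Jak2 is chr19:29251553-29251802, both on the plus strand.
Il4ra: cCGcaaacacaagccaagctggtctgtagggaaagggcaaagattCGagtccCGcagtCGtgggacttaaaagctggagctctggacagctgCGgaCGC
Il2rg: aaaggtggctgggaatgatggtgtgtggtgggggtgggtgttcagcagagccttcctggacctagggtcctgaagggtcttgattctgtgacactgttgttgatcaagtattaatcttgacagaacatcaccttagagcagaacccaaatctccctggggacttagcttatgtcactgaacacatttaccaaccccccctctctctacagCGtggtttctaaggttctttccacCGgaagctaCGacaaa
Jak3: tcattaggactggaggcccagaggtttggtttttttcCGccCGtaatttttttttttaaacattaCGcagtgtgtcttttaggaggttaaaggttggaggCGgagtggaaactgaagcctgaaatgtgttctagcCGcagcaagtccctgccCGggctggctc
Jak2: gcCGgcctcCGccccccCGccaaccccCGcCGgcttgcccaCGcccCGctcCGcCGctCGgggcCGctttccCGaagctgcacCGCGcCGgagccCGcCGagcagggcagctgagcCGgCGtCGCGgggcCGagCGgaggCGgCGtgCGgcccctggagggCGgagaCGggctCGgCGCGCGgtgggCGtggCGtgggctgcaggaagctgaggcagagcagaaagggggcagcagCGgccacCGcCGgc
All 7 genes had an entry in the RefSeq table. In the 250 bases before the RefSeq start, Jak2 had 37 CpG, more than or as many as 98.12% of the 32817 mouse promoters in that table, and Il2rg had 3, against a median of 6. Jak3 had 8, Il4ra 17, Jak1 and Tyk2 19 each, and Il13ra1 21. The 4 genes shown above thus included both the lowest and the highest CpG content of the 7. A search of both strands of these windows for the letters TTCNNNNGAA (a STAT6 site), TTCNNNGAA (a GAS site for STAT proteins, which differs from the former by its spacer), GAAANNGAAA (an interferon response repeat), TGANTCA (AP-1), GAGGAA (the core bound by the Mφ factor PU.1) and a κB site found no match in any of the 7. These letters occurred in 5.851%, 7.015%, 2.968%, 6.753%, 23.25% and 7.249% of all promoters, in that order. The absence of a match says only that the letters are not in these windows.

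On build GRCm38, which the labels name, the GENCODE M21 annotation places Il4ra at chr7:125552120-125579474, Il2rg at chrX:101264378-101268255 and Il13ra1 at chrX:36112110-36171259. Jak1 lies at chr4:101152367-101265282, Jak3 at chr8:71676296-71690575, Jak2 at chr19:29251828-29313080 and Tyk2 at chr9:21104068-21131243. The counts are reads over the exons of these genes. Il2rg shares 728 exon bases on its own strand with the gene model Gm20489, which was listed at 0, 0 and 0 reads in Ctr and at 8, 19 and 27 reads in αGlu 1, 2 and 3. Jak3 shares 404 exon bases with Insl3, which had 4 reads over all 6 libraries. Il4ra and Tyk2 have antisense partners over 571 and 554 exon bases, Gm44876 with 0 reads and 1700084C06Rik with 3 reads over all libraries. Few reads were thus listed under any of the overlapping genes, but how the counting shared reads between them was not given in the sources used here.

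Total exon counts ranged from 17912831 to 30386653 per library, with the lowest in αGlu 1. The αGlu 1 library stood apart from αGlu 2 and αGlu 3. Its log2 CPM (CPM, the reads of a gene scaled by the effective size of its library, is the normalised read count used throughout) correlated over all tested genes at a Pearson r of 0.929 with each of them and at 0.966 to 0.982 with the Ctr libraries, whereas αGlu 2 and αGlu 3 correlated at 0.992. On the first principal component, which held 76.7% of the variance, αGlu 1 lay at -22.2 beside the Ctr libraries at -50.5 to -35.8, and αGlu 2 and 3 lay at 74.4 and 74.7. Why αGlu 1 stood apart was not tested. Each fold change below is therefore given with all 6 libraries and without αGlu 1. The latter fit sets αGlu 2 and αGlu 3 against the Ctr libraries. Because αGlu 1 was left out for its profile in these same data, the standard errors and p-values of that fit hold only given this choice. They do not measure the spread of the full αGlu group. All 10 Mφ marker genes fixed for the check of cell identity were above 1 CPM in every library, and their summed level was 13437 to 15013 CPM in Ctr and 14111 to 20048 CPM in αGlu. In bulk RNA, fewer cells of a type and less RNA per cell cannot be told apart.

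Il4ra, the chain shared by both receptors, differed most. Its level was 62.7, 61.1 and 66.3 CPM in Ctr 1, 2 and 3, and 78.2, 510 and 643 CPM in αGlu 1, 2 and 3. The groups did not overlap, the 3 Ctr libraries lay within a few CPM of each other, and the αGlu libraries were far apart, with αGlu 1 close to Ctr. The mean of αGlu 2 and 3 was 9.10 times the Ctr mean, and αGlu 1 was at 1.23 times that mean. Over all 6 libraries, the log2 fold change of αGlu over Ctr was 2.70 ± 0.73 (SE, n = 3 per group, 95% confidence interval 0.92 to 4.47), with an unadjusted p of 0.00985 and an adjusted p of 0.157 by the edgeR quasi-likelihood test. Without αGlu 1 it was 3.18 ± 0.12 (adjusted p 2.6e-05, edgeR). The standard deviation of log2 CPM was 0.061 in Ctr and 1.67 in αGlu.

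Il2rg, the common gamma chain, had the highest level per length of the 7 genes in each library. Its values were 132, 178 and 227 CPM in Ctr and 218, 503 and 547 CPM in αGlu. The αGlu 1 library lay inside the Ctr range, which itself was wide, and αGlu 2 and 3 lay above it. The log2 fold change was 1.24 ± 0.39 (SE, n = 3 per group, 95% interval 0.29 to 2.19, edgeR adjusted p 0.162). Without αGlu 1 it was 1.55 ± 0.21 (edgeR adjusted p 0.00225), with αGlu 2 and 3 at a mean of 2.93 times that of Ctr.

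Il13ra1, the chain that brings IL-13 into the type II receptor, was measured at 10.6, 16.2 and 16.2 CPM in Ctr against 19.7, 22.2 and 16.98 CPM in αGlu. Every αGlu library was above every Ctr library, but the lowest αGlu value and the highest Ctr value were within counting error. The 95% Poisson interval was 15.5 to 18.6 CPM in αGlu 3, from 463 reads, and 14.6 to 18.03 CPM in Ctr 3, from 350 reads. The log2 fold change of 0.45 ± 0.20 (SE, 95% interval -0.03 to 0.93) had an adjusted p of 0.221 by edgeR. It was 0.44 ± 0.21 without αGlu 1 (edgeR adjusted p 0.142), so leaving out that library hardly moved the estimate. In this gene αGlu 1 was at 1.37 times the Ctr mean, close to αGlu 2 and 3 at a mean of 1.36 times.

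**Figure D1:**
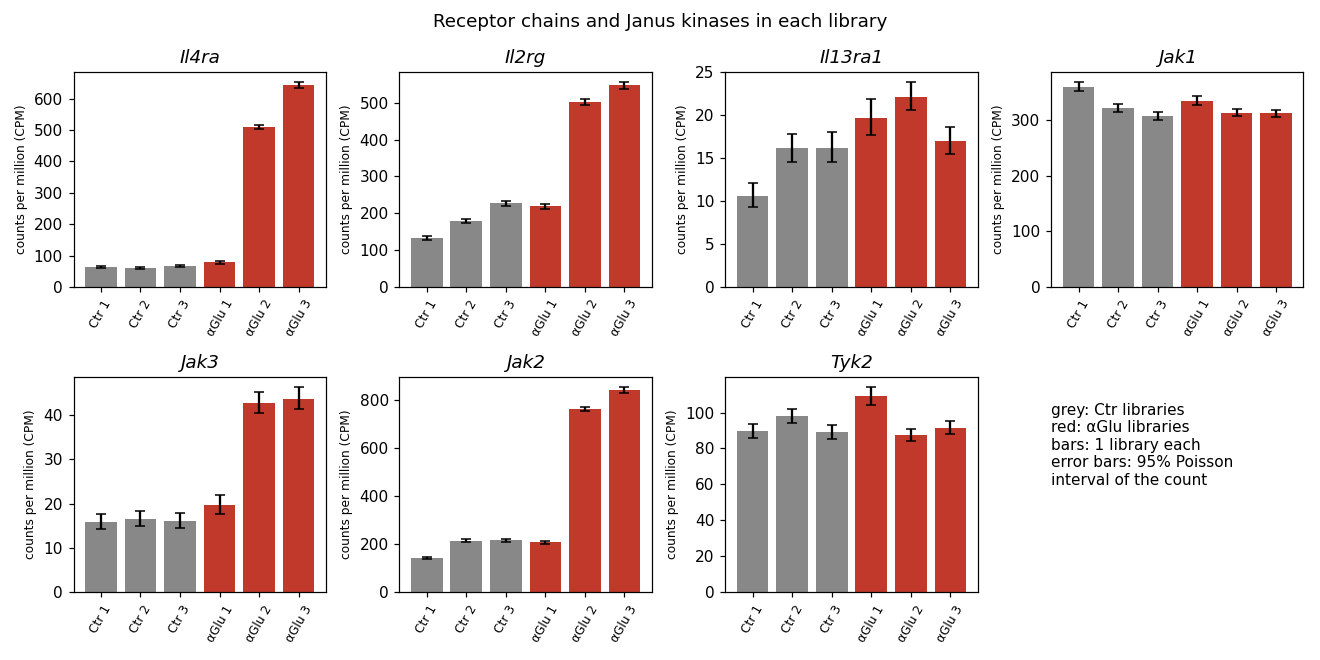
Level of each of the 7 genes in CPM (vertical axes, linear, each from 0), with 1 bar for each library (grey for Ctr, red for αGlu) and the 95% Poisson interval of the count as error bar. Il4ra, Il2rg, Jak3 and Jak2 are tall in αGlu 2 and αGlu 3 and near Ctr in αGlu 1, whereas Il13ra1, Jak1 and Tyk2 show no such step.

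Jak1, which serves nearly all cytokine receptors of this class, was at 360, 321 and 307 CPM in Ctr against 335, 313 and 312 CPM in αGlu. All αGlu values lay inside the Ctr range. The log2 fold change was -0.04 ± 0.11 (SE, n = 3 per group, edgeR adjusted p 0.811), and its 95% interval of -0.30 to 0.22 left room for modest changes in either direction. Its sign turned with the scaling, since with library sizes alone the value was 0.04.

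Jak3, which works through Il2rg, was at 15.9, 16.6 and 16.1 CPM in Ctr, the tightest group of values among the 7 genes. It was at 19.7, 42.8 and 43.7 CPM in αGlu, with no overlap between the groups. The 95% counting interval of αGlu 1 began at 17.6 CPM and that of Ctr 2, its nearest neighbour, reached 18.3 CPM, while αGlu 2 and 3 were at a mean of 2.67 times the Ctr mean. The log2 fold change was 1.13 ± 0.30 (SE, n = 3 per group, 95% interval 0.39 to 1.87, edgeR adjusted p 0.157). Without αGlu 1 it was 1.41 ± 0.07 (edgeR adjusted p 4.8e-05).

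Jak2, the kinase of growth factor and interferon-γ receptors, was at 142, 213 and 216 CPM in Ctr against 207, 762 and 840 CPM in αGlu. The αGlu 1 library again lay inside the Ctr range, and αGlu 2 and 3 were at a mean of 4.20 times the Ctr mean. The log2 fold change was 1.66 ± 0.53 (SE, n = 3 per group, 95% interval 0.37 to 2.95, edgeR adjusted p 0.162). It was 2.07 ± 0.19 without αGlu 1 (edgeR adjusted p 0.000474), which among the 7 genes was exceeded by Il4ra alone.

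Tyk2, the kinase carried by Il13ra1 and by type I interferon receptors, was at 89.7, 98.2 and 88.9 CPM in Ctr against 109, 87.6 and 91.6 CPM in αGlu. Here αGlu 1 was the highest of the 6 libraries, and the other αGlu libraries were level with Ctr. The log2 fold change was 0.06 ± 0.11 (SE, n = 3 per group, 95% interval -0.21 to 0.32, edgeR adjusted p 0.745). Without αGlu 1 it was -0.05 ± 0.08 (edgeR adjusted p 0.679).

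None of the 7 genes passed the threshold (adjusted p under 0.1) with all 6 libraries, where the background was 0% of the 11933 genes. At an unadjusted p under 0.05, Il4ra, Il2rg, Jak3 and Jak2 were higher in αGlu, 4 of the 7, against 12.7% of all tested genes. No overlap with higher values in αGlu was seen for 3 of the 7 (Il4ra, Il13ra1 and Jak3), against 14.2% of all tested genes. Without αGlu 1, the edgeR test called 4 of the 7 as higher, against 23.5% of the genes then tested, and all 4 were also past a log2 fold change of 1, as were 8.05% of those genes. DESeq2 on all 6 libraries called the same 4 genes at adjusted p values of 0.00141 (Il4ra), 0.0145 (Jak3), 0.0173 (Jak2) and 0.0245 (Il2rg), against 7.71% of its genes in this direction. No member was called lower in any of these comparisons. The members were chosen with earlier results of these data known, so the shares beside them are a description and not an independent test. The median log2 fold change of the 7 was 1.13, beside 0.02 over all tested genes, and 1.41 without αGlu 1.

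**Figure D2:**
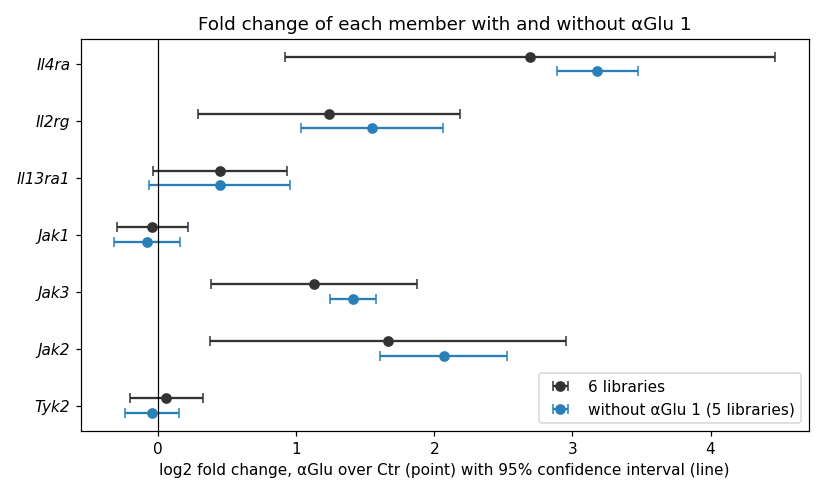
Log2 fold change of αGlu over Ctr for each of the 7 genes (points, horizontal axis) with its 95% confidence interval (lines), from the edgeR fit of all 6 libraries (black) and of the 5 libraries without αGlu 1 (blue). For Il4ra, Il2rg, Jak3 and Jak2 the intervals exclude 0 in both fits and are narrower without αGlu 1, and for Il13ra1, Jak1 and Tyk2 they include 0 in both.

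Levels of different transcripts were compared by the deposited RPKM, which are scaled by exon length. In Ctr the order of means was Il2rg (68.4 ± 17.8 RPKM, SD, n = 3), Jak1 (41.7 ± 4.24), Jak2 (34.5 ± 6.998), Tyk2 (12.3 ± 0.42), Il4ra (9.65 ± 0.55), Il13ra1 (3.52 ± 0.73) and Jak3 (2.77 ± 0.011). The ranges of Jak1 and Jak2 overlapped, as did those of Il13ra1 and Jak3, so these neighbours did not differ beyond their spread. The order in αGlu 1 was that of the Ctr means. In αGlu 2 and 3 it was Il2rg (206 and 230 RPKM), Jak2 (148 and 168), Il4ra (83.2 and 107), Jak1 (42.4 and 43.3), Tyk2 (12.5 and 13.4), Jak3 (7.84 and 8.19) and Il13ra1 (5.85 and 4.59), with no overlap between neighbours. Il4ra and Jak2 thus stood above Jak1 in those libraries, and Jak3 stood above Il13ra1. Jak2 was also above Jak1 in Ctr 3 (39.3 against 38.9 RPKM), and Jak3 above Il13ra1 in Ctr 1 (2.78 against 2.68 RPKM). Il4ra was below Jak1 in every Ctr library.

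**Figure D3:**
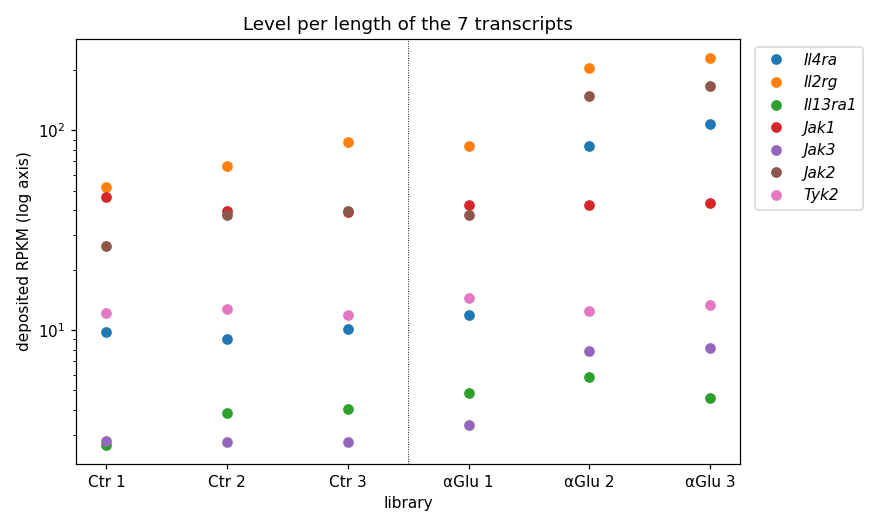
Deposited RPKM of the 7 genes (vertical axis, logarithmic) in each of the 6 libraries (horizontal axis), with 1 point for each gene and library. In αGlu 1 the colours keep the order of the Ctr means. In αGlu 2 and αGlu 3, Il4ra (83.2 and 107 RPKM) and Jak2 (148 and 168 RPKM) stand above Jak1 (42.4 and 43.3 RPKM). Jak2 also stands above Jak1 in Ctr 3 (39.3 against 38.9 RPKM).

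Ratios of RPKM within a library, which do not depend on its depth, compared the mRNAs of parts of the type I and the type II receptor. Il2rg and the kinases also serve other receptors, so these ratios do not measure the balance between the receptor types. Il2rg over Il13ra1, the partner chains, was 19.4, 17.1 and 21.7 in Ctr and 17.3, 35.3 and 50.1 in αGlu. Jak3 over Tyk2, the kinases of these partners, was 0.227, 0.217 and 0.233 in Ctr and 0.231, 0.627 and 0.612 in αGlu. In both ratios αGlu 1 lay inside the Ctr range, and αGlu 2 and 3 were above it. Il4ra over Il2rg was 0.188, 0.137 and 0.116 in Ctr and 0.142, 0.403 and 0.468 in αGlu. Il4ra over Il13ra1 was 3.65, 2.33 and 2.53 in Ctr and 2.46, 14.2 and 23.4 in αGlu. In αGlu 2 and 3, Il4ra was thus higher relative to either partner than in any Ctr library. Il2rg was also higher relative to Il13ra1, and Jak3 relative to Tyk2. The other kinase linked to Il13ra1, Jak2, went the other way against Jak3. The ratio of Jak3 over Jak2, added after the values were seen, was 0.105, 0.0731 and 0.0704 in Ctr, 0.0892 in αGlu 1, and 0.0528 and 0.0489 in αGlu 2 and 3, below every Ctr library. On the log2 scale the αGlu mean minus the Ctr mean was 0.69, 0.98, 1.06 and 1.75 for the 4 ratios in this order. They are described without a test.

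Across the 6 libraries, log2 CPM of Il4ra correlated with that of Jak3 at a Pearson r of 0.994, with that of Jak2 at 0.980 and with that of Il2rg at 0.955. Il13ra1 correlated with these 4 genes at 0.505 to 0.687. All points of such a correlation share the step between αGlu 2 and 3 and the other libraries. Over the 4 libraries other than αGlu 2 and 3, Il4ra with Jak3 was at 0.910 and Il4ra with Jak2 at 0.310, from too few points for a statement. The genes whose pattern over the 6 libraries was most like that of Il4ra were Vasp (an actin regulator), Pf4 (a platelet chemokine that Mφs also make) and Arrb2 (a receptor adaptor), at an r of 0.9998, 0.9993 and 0.9991. For Jak3 they were Ddt, Dock4 and Mapk8, at 0.9991, 0.9983 and 0.9981. Such likeness was common, since 682 of the 8576 genes compared had an r above 0.95 with Il4ra and 662 had one with Jak3. Vasp, for example, was at 51.5, 50.2 and 53.2 CPM in Ctr against 56.7, 190 and 219 CPM in αGlu.

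The genes around these receptors were described from lists written from general knowledge, but with earlier results of these data known. Their counts are therefore a description and not an independent test. No gene of any list passed the threshold with all 6 libraries, so the counts that follow are for an unadjusted p under 0.05 and then for an adjusted p under 0.1 without αGlu 1. Of all genes tested, 12.7% were higher and 11.9% lower by the first count, and 23.5% rose and 25.6% fell by the second. The mRNAs of the ligands were at or near the limit of detection. Il13 had 0 reads in every library, and Il4 had at most 1 read. Il13ra2, the decoy receptor that binds IL-13 without signalling, was at 0.042 to 0.567 CPM, from at most 18 reads, and was not tested.

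Stat6, the transcription factor that the receptor activates, was nearly the same in all libraries, at 257, 278 and 256 CPM in Ctr and 279, 264 and 257 CPM in αGlu. Its log2 fold change was 0.02 ± 0.09 (SE, edgeR adjusted p 0.922). Irs2, the adaptor that links Il4ra to the PI3-kinase route, was at 20.7, 11.9 and 14.2 CPM in Ctr and 15.7, 10.8 and 10.4 CPM in αGlu, with overlap (log2 fold change -0.35 ± 0.26, edgeR adjusted p 0.410). Of the 17 signal transducers tested, 0 were higher and 4 were lower at an unadjusted p under 0.05. Shc1, an adaptor to the Ras route, was lower in each αGlu library than in any Ctr library (115, 103 and 92.6 against 76.4, 65.6 and 69.7 CPM), as was the kinase Akt2 (115, 116 and 109 against 103, 82.8 and 86.1 CPM). The other 2, Akt1 and Mapk3, are named after their values were seen. The count of 4 fell to 1 without Ctr 1, Ctr 2, αGlu 2 or αGlu 3. Without αGlu 1, 3 of the 17 rose and 9 fell, and the median of the list with 6 libraries was -0.22.

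Of the 23 negative regulators of Janus kinase signalling, 3 were higher (Socs1, Socs3 and Ptpn2) and 2 lower (Socs6 and Stub1) at an unadjusted p under 0.05. The last 3 of these names were chosen after their values were seen. Socs1, which inhibits the kinases directly, was at 7.27, 8.94 and 9.23 CPM in Ctr against 12.2, 38.6 and 39.6 CPM in αGlu (log2 fold change 1.83 ± 0.45, edgeR adjusted p 0.156). Every αGlu library was above every Ctr library, and αGlu 2 and 3 were much higher than αGlu 1. Socs3, the feedback inhibitor of gp130 receptors, was at 0.772, 0.418 and 0.139 CPM in Ctr, 0.516 CPM in αGlu 1, and 221 and 216 CPM in αGlu 2 and 3. The first 4 of these values rest on 3 to 17 reads, and the last pair on 7028 and 5884 reads. Cish, a Stat5 target, was at 15.4, 18.4 and 13.5 CPM in Ctr against 8.83, 51.6 and 49.9 CPM in αGlu, where αGlu 1 was the lowest of all libraries (log2 fold change 1.23 ± 0.62, edgeR adjusted p 0.260). Without αGlu 1, 5 of the 23 rose and 8 fell, against 23.5% and 25.6% of all genes, so the list as a whole was near the background. Its median with 6 libraries was -0.04.

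Other receptors that use the same gamma chain or the same kinases did not move in 1 direction. Of the 4 tested partners of the common gamma chain, Il15ra was higher (6.81, 10.7 and 11.2 against 16.1, 32.8 and 27.3 CPM, unadjusted p 0.00425 by edgeR) and none was lower, with a list median of 0.30. Il21r was at 23.7, 45.2 and 47.7 CPM in Ctr and 50.0, 69.8 and 69.3 CPM in αGlu. Without αGlu 1, 2 of the 4 rose and 1 fell. The 1 that fell was Il7r, named after its values were seen and the highest of the 4 in CPM in each library. Its level was 599, 833 and 748 CPM in Ctr and 682, 401 and 257 CPM in αGlu. Its log2 fold change was -0.70 ± 0.36 with 6 libraries and -1.15 ± 0.23 without αGlu 1. Of the 7 tested receptors for interferons and the IL-10 family, 5 were higher and 0 lower at an unadjusted p under 0.05, with a list median of 0.90. These were Ifnar1, Ifnar2, Ifngr1, Ifngr2 and Il20rb, of which Ifnar1 and both Ifngr genes were named after their values were seen. Ifnar2, a chain of the type I interferon receptor, was at 93.8, 101 and 110 CPM in Ctr and 120, 255 and 217 CPM in αGlu. Il20rb was at 2.41, 2.13 and 2.32 CPM in Ctr, 1.72 CPM in αGlu 1, and 36.8 and 41.5 CPM in αGlu 2 and 3. Without αGlu 1 the count was also 5 of 7. It was 1 without Ctr 2, and 2 without any one of Ctr 1, Ctr 3, αGlu 2 and αGlu 3.

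Of 7 tested gp130, IL-12 and IL-27 receptors, 0 were higher and 1 was lower at an unadjusted p under 0.05, against 11.9% of all genes, and the list median was -1.04. The 1 gene, Il11ra1, no longer counted without Ctr 1, Ctr 2, αGlu 2 or αGlu 3. Without αGlu 1, 1 of 8 rose and 6 fell. Il11ra1 was at 186, 192 and 162 CPM in Ctr and 148, 64.8 and 49.6 CPM in αGlu. Il6st, which encodes gp130 itself, was at 897, 798 and 545 CPM in Ctr and 642, 235 and 196 CPM in αGlu, with αGlu 1 inside the Ctr range. Of 6 tested receptors with the beta common chain or a single chain, 1 was higher (Csf3r) and 2 were lower (Epor and Csf2ra, the latter named after its values were seen), with a median of -0.15, and without αGlu 1 the counts were the same. Epor, the erythropoietin receptor, was at 0.909, 1.003 and 0.974 CPM in Ctr and 0.344, 0.409 and 0.183 CPM in αGlu, from 5 to 24 reads.

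**Figure D4:**
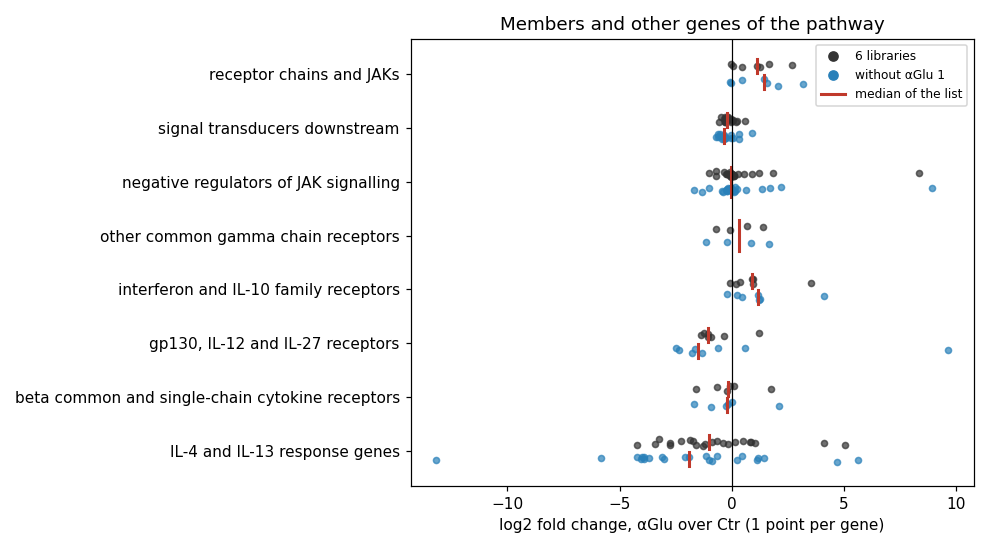
Log2 fold change of αGlu over Ctr (horizontal axis) of each tested gene, 1 point per gene, for the 7 receptor chains and Janus kinases and for 7 lists of other genes of the pathway, with all 6 libraries (black) and without αGlu 1 (blue), and list medians as red bars. The median was 1.13 for the 7 genes, 0.90 for the interferon and IL-10 family receptors and -1.04 for the gp130, IL-12 and IL-27 receptors with 6 libraries.

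Of the 22 tested response genes of IL-4 and IL-13, 3 were higher and 7 lower at an unadjusted p under 0.05, against 12.7% and 11.9% of all genes. The median log2 fold change was -1.03, and -1.90 without αGlu 1. Ccl22, a chemokine of M2 cells, was at 13.04, 9.57 and 10.997 CPM in Ctr and 2.47, 1.61 and 0.9903 CPM in αGlu (log2 fold change -2.75 ± 0.34, edgeR adjusted p 0.149). It was low in αGlu 1 too, unlike the step seen in Il4ra, Jak2 and Jak3. Fn1, the matrix protein fibronectin, was at 122, 40.2 and 29.2 CPM in Ctr and 12.2, 4.12 and 4.47 CPM in αGlu. The rest of the 7 lower genes, named after their values were seen, were Irf4, Mgl2, Klf4, Myc and Batf3. Mgl2 was at 87.9, 66.3 and 83.9 CPM in Ctr and 10.6, 0.504 and 2.35 CPM in αGlu. Irf4 was at 30.3, 26.9 and 25.3 CPM in Ctr and 8.95, 2.05 and 1.54 CPM in αGlu. The 3 higher genes, also named after their values were seen, were Arg1, the arginase of M2 cells, Ccl24 and Tgm2. Arg1 was at 24.3, 45.2 and 41.5 CPM in Ctr, 23.5 CPM in αGlu 1, and 1886 and 1792 CPM in αGlu 2 and 3. As for Il4ra, αGlu 1 was near Ctr and the other αGlu libraries were far above. Without αGlu 1, 5 of 23 response genes rose and 14 fell.

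Markers of other cell types were listed because the same receptors and kinases are used by other blood cells. The summed level of 12 neutrophil markers was 129 to 211 CPM in Ctr, 241 CPM in αGlu 1, and 570 and 636 CPM in αGlu 2 and 3. The higher sum rested on Csf3r: without it, a sum added after the values were seen, the other 11 were at 26.6, 69.9 and 44.5 CPM in Ctr, 57.3 CPM in αGlu 1, and 34.2 and 28.2 CPM in αGlu 2 and 3. Of these 11, 7 had a lower mean in αGlu 2 and 3 than in Ctr and 2 a higher one. Of the 12, 2 were above 1 CPM in all libraries, Csf3r and Mmp8, and Ly6g and Retnlg were at 0 in every library. Csf3r, the receptor of granulocyte colony-stimulating factor and a user of Jak2, led the sum at 103, 141 and 158 CPM in Ctr and 183, 536 and 607 CPM in αGlu. The 6 dendritic cell markers summed to 1.03 to 2.34 CPM with Xcr1 at 0, and the 8 lymphocyte markers to 0.125 to 0.378 CPM with Nkg7 at 0. The 6 mast cell and basophil markers summed to 1.28 to 5.96 CPM and the 6 fibroblast markers to 1.007 to 7.18 CPM. In these 4 lists, 0 genes exceeded 1 CPM in all libraries.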

How the data were processed

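Messenger RNA was measured by stranded mRNA sequencing in 6 libraries, 3 per group, from what the study calls independent experiments. Reads were annotated by the authors in the RNA-seq Analysis Portal of QIAGEN. The labels name GRCm38 as build. Aligner, annotation, strand setting and the handling of multi-mapping reads are not given in the sources used here. The deposited counts are whole numbers of exon reads per gene, without normalization. The deposited RPKM are the same reads scaled by exon length and depth by the authors, and served to compare levels between genes. The table also holds other normalized columns, not used here. All 6 libraries matched a label by name.

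Genes with few counts were removed (filterByExpr, minimum count 10, minimum total count 15), TMM factors were computed and edgeR 4.0.16 in R 4.3.3 fitted a quasi-likelihood model with group alone to the counts of the 6 libraries. Two-sided p-values were adjusted over all 11933 genes by Benjamini-Hochberg, with calls at an adjusted p under 0.1. The p-values measure the spread between these libraries. CPM are counts over the TMM-scaled library size, and log2 CPM have a prior count of 2. Poisson intervals cover counting error only, and PCR duplicates are not told apart. The precision of CPM follows depth, and 3 reads, taken as floor, are 0.0944 to 0.172 CPM. All library pairs differed by more than sampling noise (chi-square per gene of 18.9 or more). The scripts were tested on simulated data.

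The members and lists were chosen with earlier results of these data known. Named are the 7 members, Stat6, Il13ra2, Irs2, Socs1 and Cish, the 2 genes of each list with the smallest unadjusted p, the 3 genes most like Il4ra and most like the member with the smallest p (Jak3) (mean log2 CPM 3 or more), and markers that lead their list. Alternatives were DESeq2 1.42.0, voom of limma 3.58.1, library size alone, upper-quartile or RLE factors, 2 other filters, stricter thresholds, a block for the replicate number, and leaving out each library. Promoters and oligonucleotides were read from RefSeq tables, GENCODE M21 and the study's supplement. Of the response list, 25 of 26 symbols were in the table.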

Additional observations from a re-analysis of the deposited data

How the results depend on the processing

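With all 6 libraries, edgeR called 0 members, and 0 under limma-voom, the other scalings, filters and thresholds. DESeq2 called 4 members and 2173 genes, with log2 fold changes of 2.69 (Il4ra), 1.23 (Il2rg), 1.12 (Jak3) and 1.65 (Jak2). Leaving out 1 library gave 0 to 4 members and 0 to 6055 genes called, with the upper values without αGlu 1. The log2 fold changes then ranged from 2.22 to 3.18 (Il4ra), 1.012 to 1.55 (Il2rg), 0.95 to 1.41 (Jak3), 1.35 to 2.07 (Jak2), -0.0938 to 0.0348 (Jak1, above 0 without Ctr 1) and -0.0469 to 0.124 (Tyk2, below 0 without αGlu 1). Jak1 also turned to 0.0397 with library sizes alone. With the replicate number as a block, 17 genes and 0 members were called. The log2 fold changes in that fit were 2.29 (Il4ra), 1.16 (Il2rg), 1.05 (Jak3) and 1.45 (Jak2). Deviations of same-numbered libraries correlated at 0.065 to 0.154, above those of different-numbered libraries at -0.112 to 0.046. The labels do not say that same-numbered libraries share an experiment, so the main fit has no block. The study used a paired test for the level of the fragment after this transfection, but states no pairing for the sequencing. Whether the numbers mark a pairing was not settled. Il13ra1 stayed above 0 and uncalled in all 14 alternatives. Without αGlu 1 the list counts at an unadjusted p under 0.05 went from 4 to 12 (transducers), 5 to 13 (negative regulators), 1 to 3 (gamma chain partners), 1 to 7 (gp130 list) and 10 to 19 (response genes). Those of the interferon list (5) and the beta common list (3) did not move. Depth limited the statements on Il4, Il13, Il13ra2 and Epor, and the lowest Il13ra1 values. The causes of these changes were not tested.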
